A study of Mus musculus with 10 samples.

Results

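Suprabasal keratinocytes of bitransgenic mice that model Hutchinson-Gilford progeria syndrome (HGPS) were compared with suprabasal keratinocytes of wild type mice. A locus entered the comparison when its line in the authors' suprabasal table had the status OK and when the higher of its 2 group levels was at least 5 FPKM. FPKM scales fragment counts by transcript length and library size, and this unit is read from the form of the deposited tables. The rule kept 9657 of 11464 suprabasal loci of that status, and 12171 loci had it in at least 1 layer of the series. Of the 9657, 341 are merged loci, which carry several gene symbols or none, and 107 symbols stand on more than 1 locus. Just outside the threshold lay Trib2 (a wild type level of 4.29 FPKM and a bitransgenic level of 4.997), Clybl (4.998 and 2.51) and Efcab1 (4.998 and 2.76). Just inside it lay Ext1 (5.002 and 0.895), Entpd6 (5.01 and 3.25) and Adck1 (5.02 and 4.00).

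All animals were FVB/N mice at postnatal day 4, and keratinocytes from their skin were sorted by flow cytometry. The suprabasal groups had 3 wild type and 2 bitransgenic samples, and basal cells, used here only to show where the layers differ, also had 3 and 2. The series title ties the model to the accumulation of progerin, and the labels used here do not name the promoter that drives it, the sex of the animals or whether a sample is 1 animal. If samples of a group are not separate animals, the authors' p-values measure only the spread between those samples, which may be technical.

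The epidermis is renewed from its basal layer, whose cells divide and hold on to the basement membrane. Cells that leave it become suprabasal: they first build a cytoskeleton of the keratins Krt1 and Krt10, and later lay down the cornified envelope, a shell of proteins such as involucrin, loricrin, the small proline-rich (Sprr) proteins and the late cornified envelope (Lce) proteins that transglutaminases link together. Progerin is a shortened lamin A that keeps its lipid anchor and stays at the nuclear envelope.

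Each suprabasal group is represented by 1 level per locus, so every level below is a group value, given first for wild type and then for bitransgenic cells. No values of single samples were analysed here, so there is no replicate spread to show and the sequencing depth behind a level is unknown. A locus is called when the authors' q is under 0.05. A log2 fold change is the authors' deposited value, bitransgenic over wild type, and the ± beside it is the standard error implied by the authors' p. That error is an upper bound where the p is 5e-05, the smallest in the table, which 35 of the called loci share. A p-value for a difference between the layers that uses such an error is an upper bound too. The log2 ratio, used for medians and for counts past 2-fold, adds 1 FPKM to both levels and so understates the change of low genes.

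The markers of suprabasal identity were abundant in both genotypes. Krtdap, a secreted keratinocyte protein, had 7776 and 9141 FPKM, and Sbsn, another secreted protein of differentiating cells, 638 and 737 FPKM. Krt10 had 6574 and 2354 FPKM (log2 fold change -1.48 ± 1.52, authors' p 0.33) and its partner Krt1 3419 and 1622 FPKM (log2 fold change -1.08 ± 1.62, authors' p 0.507). Both keratins were lower in the bitransgenic group, without being called.

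Markers of other cells were read in the same groups before the results. All 14 melanocyte markers lay above 0, against 43.5% of all loci, with a median log2 ratio of 0.85, and their levels summed to 2384 FPKM in wild type and to 4384 in bitransgenic cells. None was called, and Dct, Mlana, Pmel, Tyrp1, Kit and Gpr143 had an authors' p under 0.05. Dct had 1122 and 2012 FPKM, Pmel 366 and 741, and Mlana 165 and 369. Of the fibroblast markers 7 passed the level rule, with summed levels of 342 and 534 FPKM, nearly all of it Vim (316 and 492), and Col1a2 was at 3.69 and 10.4 FPKM. Of 24 leukocyte markers 5 passed, led by Epcam (64.1 and 46.2 FPKM), which keratinocytes also express, while Cd68 of macrophages had 3.13 and 10.2 and the pan-leukocyte gene Ptprc did not pass. No endothelial or muscle marker passed. The erythroid list gave Hbb-bs (1.21 and 11.5 FPKM), the adipocyte list Lpl (6.42 and 5.05), the Schwann cell list 5 loci with a median of 0.25, and the Merkel cell list a merged keratin locus alone. Hair follicle markers (13 loci, median -0.53, or -0.31 with a minimum level of 10 FPKM and -0.34 without merged loci) and sebaceous markers (10 loci, median 0.21) had 1 call between them, Tchh, against 0.549% of all loci. The merged Xist locus, which is active in female cells, had 0.236 and 103 FPKM, and the Y-linked genes Ddx3y 31.2 and 14.1, Kdm5d 5.43 and 2.19 and Eif2s3y 38.9 and 28.6. The merged locus of Jpx, the neighbour of Xist, had 515 and 0.886 FPKM, the lowest log2 ratio of all (-8.10). None of these was called. The part that melanocyte RNA and the sex of the animals have in the results below was not tested, and in bulk samples fewer cells of a type and less RNA per cell cannot be told apart. On the X chromosome 307 loci had a median log2 ratio of 0.03 and none was called, and the autosomal median was -0.08.

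Few suprabasal loci were called, and nearly all of them fell. Of 9657 loci 53 were called (0.549%): 48 were lower (0.497%) and 5 higher (0.0518%) in bitransgenic cells. The 5 that rose were Kprp, Cntfr and the loci of Rps12, Smad5 and 9430008C03Rik, and the last 3 contain annotated short RNA genes. Of the 48 falls 7 hold one (14.6%), namely Igf2, Ppm1h, H2afj, Plagl1, Antxr1, Itpkc and Hist1h2ak, so that 10 of the 53 calls do (18.9%), against 18.6% of all loci. Among the falls were the growth factor gene Igf2, the keratin gene Krt15, the transcription factor genes Junb, Id1, Id3, Klf2 and Pou3f1, the heat shock genes Hspa1a and Hspa1b, and the ligand genes Wnt4, Wnt7b and Bmp2. All 53 lay past 2-fold. The median log2 ratio of all loci was -0.07, with quartiles at -0.39 and 0.23 and a range from -8.10 to 6.39. Past 2-fold stood 310 loci in the higher direction (3.21%) and 531 in the lower (5.5%), and 788 of these were not called. The authors' p was under 0.05 for 739 loci (7.65%), of which 544 were lower and 195 higher. Centring the fold changes on their median and adjusting again ended 17 calls, all of them falls: Jund, Klf2, Zfp36l2, Bmp2, Tchh, Peg3, Plagl1, Ptma, Slc22a4, Serpinb12, Cd109, Gpt, Ccdc3, the merged Clca locus, Gm7367, 2810428I15Rik and 4833423E24Rik. Adjustment over the loci of status OK alone ended those of Bmp2, Zfp36l2, Plagl1, Serpinb12, Cd109 and 4833423E24Rik.

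**Figure D1:**
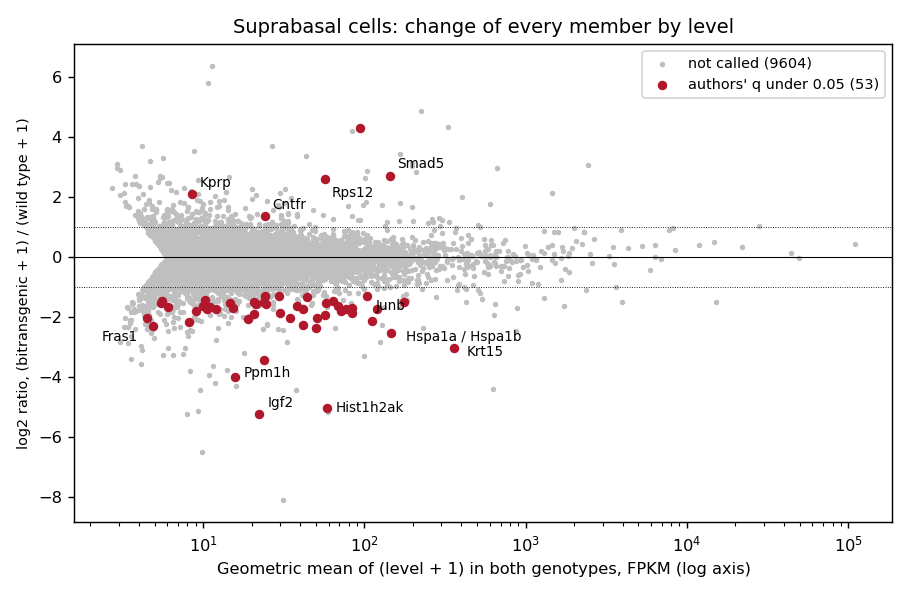
Each point is 1 of the 9657 suprabasal loci, placed by the geometric mean of its levels plus 1 (horizontal, FPKM, log axis) and by its log2 ratio of bitransgenic over wild type (vertical), with dotted lines at 2-fold. The 53 called loci are red, 48 of them below 0, and uncalled points spread most widely at low levels.

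The spread of the ratios depended on the level. Below a geometric mean of 10 FPKM, 8.79% of 3219 loci were past 2-fold lower, against 3.65% of 4060 loci between 10 and 30 FPKM. The wedge at the left of the plot of ratio by level follows from the level rule itself. There, 531 loci reached 5 FPKM in bitransgenic cells alone, and so had to lie above 0, and 804 in wild type cells alone, and so had to lie below 0. The counts and medians of the gene lists include such loci. At 100 to 1000 FPKM the shares past 2-fold were again 5.32% higher and 5.69% lower, and above 1000 FPKM 4.55 and 7.58% of 66 loci.

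Genes of the immediate early response, which cells switch on within minutes of a growth signal or of stress, were the list with the most calls. Of 39 loci 7 fell (0.497% among all loci), none rose, and 37 lay below 0. Their median log2 ratio was -1.08, and 21 were past 2-fold lower (5.5% among all loci). The median of the same loci in basal cells was -0.72, with 12 called lower there, where 1.48% of all loci in both tables were.

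AP-1 is a transcription factor built from Jun and Fos proteins, and all 8 of its loci lay below 0. Junb fell from 229 to 52.4 FPKM (log2 fold change -2.13 ± 0.53, authors' q 0.0161). Jund fell from 149 to 45.6 FPKM (log2 fold change -1.704 ± 0.46, authors' q 0.0356). The more abundant members were lower without a call: Fos had 867 and 332 FPKM (log2 fold change -1.39 ± 0.48, authors' q 0.141), Jun 718 and 256 FPKM, and Fosb 300.3 and 113 FPKM. Fosl1, a Fos-related gene of differentiating and migrating keratinocytes, had 62.7 and 26.97 FPKM and was not called either.

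The other immediate early calls were spread over several functions. Ier2, an immediate early nuclear protein gene, fell from 139 to 41.8 FPKM (log2 fold change -1.73 ± 0.43). Socs3, a feedback inhibitor of cytokine signalling, fell from 74.6 to 22.1 FPKM (log2 fold change -1.76 ± 0.43), and Gadd45g, a stress-induced growth arrest gene, from 68.5 to 15.99 FPKM (log2 fold change -2.098 ± 0.52). The zinc finger factor Klf2 fell from 15.7 to 3.81 FPKM (log2 fold change -2.04 ± 0.55). Zfp36l2, whose protein marks AU-rich messages for decay, fell from 68.5 to 27.003 FPKM (log2 fold change -1.34 ± 0.37). Not every member was low: Egr2 had 71.3 and 69.3 FPKM, Sgk1 136 and 129, and Dusp6, which reports activity of the ERK pathway, 47.6 and 65.9 FPKM, and none of these was called.

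Heat shock genes had fewer calls and lay closer to 0. Of 22 loci 2 fell (0.497% among all loci), and the median was -0.12. The merged locus of Hspa1a and Hspa1b, which encode the inducible chaperone HSP70, fell from 351 to 59.9 FPKM (log2 fold change -2.55 ± 0.63), and Dnajb1, its co-chaperone, from 131 to 37.4 FPKM (log2 fold change -1.81 ± 0.45). The constitutive chaperone gene Hsp90ab1 had 717 and 834 FPKM and Hspa4 50.9 and 78.7 FPKM. The 2 calls thus fell on stress-inducible genes, and the uncalled loci lay on both sides of 0. Genes of the unfolded protein response, the stress response of the endoplasmic reticulum, had no call among 21 loci and a median of 0.09.

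**Figure D2:**
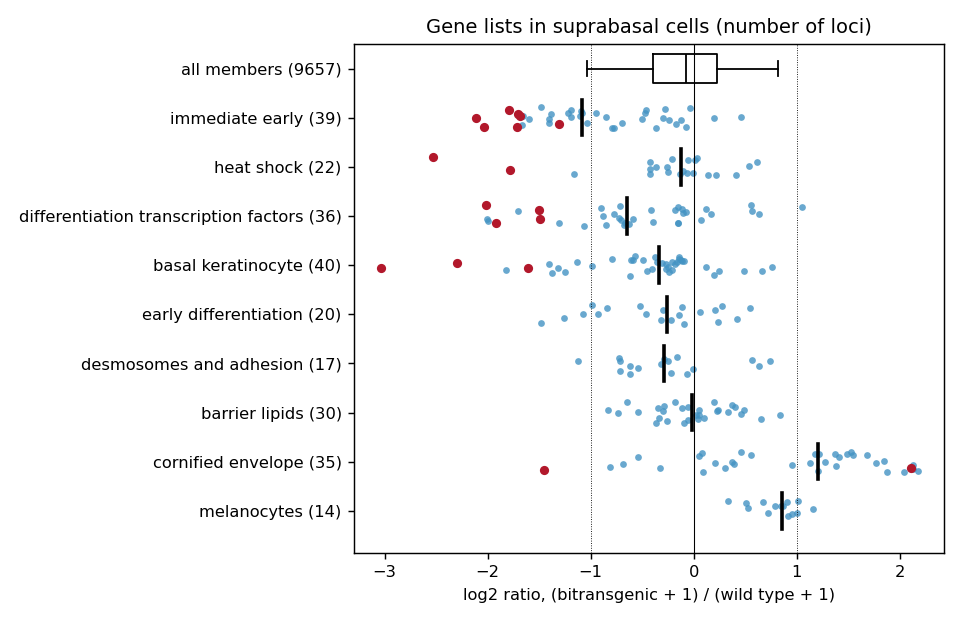
Log2 ratio of bitransgenic over wild type (horizontal) for each locus of 9 gene lists in suprabasal cells, with called loci in red, list medians as black bars, and all 9657 loci as a box of quartiles with whiskers at the 5th and 95th percentiles (-1.04 and 0.82). Immediate early loci sit mostly left of 0 and cornified envelope loci mostly right of 1, with few called in either.

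Transcription factors of epidermal identity and differentiation were lower in level. Of 36 loci 4 fell (0.497% among all loci), none rose, and 29 lay below 0 (5461 of 9657 among all loci). Past 2-fold lower were 9 (5.5% among all loci), and the median was -0.64 (-0.16 for the same loci in basal cells). Id1 and Id3 encode inhibitors that tie up basic helix-loop-helix factors and are classical targets of BMP signalling. Id3 fell from 101 to 24.3 FPKM (log2 fold change -2.06 ± 0.51) and Id1 from 109 to 28.3 FPKM (log2 fold change -1.95 ± 0.48), while Id2 had 76.2 and 85.6 FPKM and was not called. Pou3f1, a POU factor of suprabasal cells, fell from 39.2 to 13.3 FPKM (log2 fold change -1.56 ± 0.38).

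The C/EBP factors, which act where basal cells turn to differentiation, were low without a call. Cebpb had 28.9 and 6.502 FPKM (authors' p 0.029) and the higher of the 2 Cebpd loci 13.03 and 2.48 FPKM (authors' p 0.0014). Klf4, which drives barrier formation, had 172 and 100.3 FPKM, and Klf5, the most abundant of the list in wild type, 289 and 159 FPKM. The master regulator of stratified epithelia, Trp63, had 146 and 159 FPKM. Ovol1 had 46.5 and 29.8 FPKM, Grhl3 25.8 and 27.2 FPKM and Zfp750 122 and 113 FPKM. Ehf was the factor with the highest ratio, with 15.9 and 34.1 FPKM, and was not called.

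Among 24 BMP and TGF-beta genes, the ligand gene Bmp2 fell with Id1 and Id3, from 9.699 to 2.399 FPKM (log2 fold change -2.02 ± 0.55). Smad5, which carries the BMP signal to the nucleus, rose from 55.2 to 371 FPKM (log2 fold change 2.75 ± 0.68). The Smad5 locus holds 4 annotated short RNA genes, and whether its reads come from the Smad5 transcript was not tested. The median of the list was -0.22.

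Genes of the cornified envelope had higher levels in bitransgenic cells, mostly below the threshold of the test. Of 35 loci, 20 were past 2-fold higher, against 3.21% of all loci, and 30 lay above 0, with a median of 1.21. The test called 2 of the 35 (0.549% among all loci), Kprp higher and Tchh lower. Of the 35 loci 8 passed the level rule through the bitransgenic group alone and so had to lie above 0. Kprp, a proline-rich protein of the envelope, rose from 3.12 to 16.8 FPKM (log2 fold change 2.42 ± 0.60, authors' q 0.0161) at 92823074 to 92827247 of chromosome 3 (mm10). Tchh, trichohyalin of the hair sheath and tongue, fell from 8.19 to 2.35 FPKM (log2 fold change -1.802 ± 0.46, authors' q 0.0248).

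Most of these genes lie side by side in the epidermal differentiation complex on chromosome 3 (mm10, 90511034 to 93564643 for the loci measured), which made it possible to read them by family. Of its 46 loci 25 were past 2-fold higher (3.21% among all loci) and 2 past 2-fold lower (5.5% among all loci). The Lce family stood highest: 13 of 14 loci were past 2-fold higher, all 14 lay above 0, the median was 1.64 and the levels of the family summed to 115 FPKM in wild type and to 397 in bitransgenic cells. None of the 14 was called, and 6 of them reached 5 FPKM in bitransgenic cells alone. Lce1d had 13.3 and 61.7 FPKM (log2 fold change 2.21 ± 0.70, authors' q 0.141), Lce1g 5.54 and 28.5 (log2 fold change 2.36 ± 0.81) and Lce1b 12.02 and 46.8 (log2 fold change 1.96 ± 0.70). Lce1m, the member nearest to the filaggrin genes, had 9.63 and 12.9 FPKM and the smallest ratio of the family, 0.39. The Lce1 genes resemble each other, so how reads were split among them is uncertain.

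**Figure D3:**
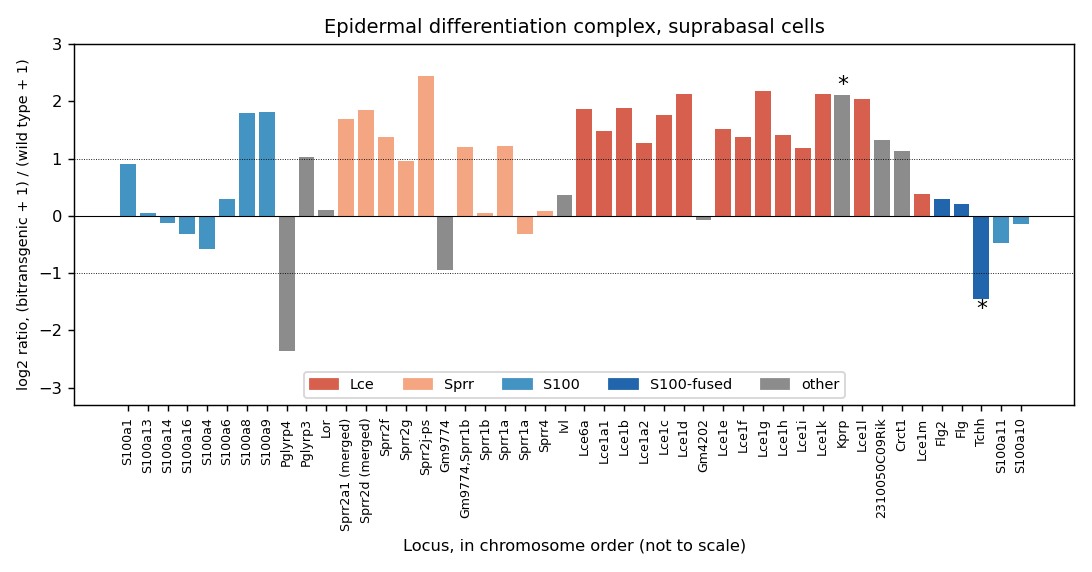
Log2 ratio of bitransgenic over wild type (bars) for the 46 suprabasal loci of the epidermal differentiation complex in chromosome order, coloured by family, with dotted lines at 2-fold and an asterisk on the called loci Kprp and Tchh. The Lce block stands above 1 except for Lce1m, and of the S100 loci at both ends S100a8 and S100a9 alone are past 2-fold.

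The other families of the complex did not all share that pattern. Of 10 Sprr loci 6 were past 2-fold higher, with a median of 1.21, and none was called. The merged locus of Sprr2d, Sprr2e and Sprr2h had 53.2 and 194 FPKM, and the most abundant Sprr1a locus 649 and 518 FPKM. Ivl, which encodes involucrin, had 18.4 and 24.01 FPKM and Lor, which encodes loricrin, 27.6 and 29.6 FPKM. Flg, the filaggrin gene, had 243 and 281 FPKM. Among the 10 S100 loci of the complex the median was -0.03, with 2 past 2-fold higher. These were the alarmin genes S100a8 (324 and 1126 FPKM, authors' q 0.122) and S100a9 (87.5 and 311 FPKM, authors' q 0.0771). The 2 loci past 2-fold lower were Tchh and Pglyrp4, a bacterial peptidoglycan receptor gene (10.2 and 1.17 FPKM). Crct1 and 2310050C09Rik, between the Lce genes, had 21.1 and 47.1 FPKM and 11.3 and 29.8 FPKM.

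In basal cells the medians of the Lce and Sprr families lay apart. The 8 Lce loci that the basal table also holds had a median log2 ratio of -1.92 there, and the 10 Sprr loci 1.94. None of these Lce loci and 1 of the Sprr loci was called in basal cells (1.79% among all loci in both tables). The level rule was not applied to the basal levels. Lce1b had 13.1 and 0.8402 FPKM in basal cells (log2 fold change -3.96 ± 3.37) and Lce1g 5.12 and 0.295 FPKM (log2 fold change -4.12 ± 2.90). The difference between the layers missed the threshold for every Lce and Sprr locus tested, with a Benjamini-Hochberg adjusted p of 1 for Lce1b and Lce1g. For Kprp, with 2.57 and 0.478 FPKM in basal cells, the difference in log2 fold change was 4.85 ± 1.27 (Wald test, adjusted p 0.195). The suprabasal error of Kprp is an upper bound, so the test cannot settle whether the layers differ for it.

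Promoters are shown for 4 Lce genes because all 14 loci of the family that passed the level rule lay above 0. Of the 14 loci, 6 reached 5 FPKM in bitransgenic cells alone and so had to lie there. The 4 genes shown are the 3 named above, with ratios of at least 1.877, and Lce1m with the lowest. Lce1k and Lce1l, with ratios of 2.12 and 2.04, are not shown. Each run is the 150 bases before the annotated start, 5′ to 3′ on the gene's strand, from RefSeq (GRCm38.p6), and the capitals mark the letters NATAAA within the last 50 bases, a form of the TATA box.
Lce1b, chr3:92656927-92657076, minus strand: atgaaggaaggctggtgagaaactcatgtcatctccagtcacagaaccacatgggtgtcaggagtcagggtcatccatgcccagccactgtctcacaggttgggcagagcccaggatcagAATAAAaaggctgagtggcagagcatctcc
Lce1d, chr3:92687211-92687360, minus strand: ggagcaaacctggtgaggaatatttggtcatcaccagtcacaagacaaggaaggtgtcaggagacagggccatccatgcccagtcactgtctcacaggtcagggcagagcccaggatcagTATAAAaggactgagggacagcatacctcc
Lce1g, chr3:92752339-92752488, minus strand: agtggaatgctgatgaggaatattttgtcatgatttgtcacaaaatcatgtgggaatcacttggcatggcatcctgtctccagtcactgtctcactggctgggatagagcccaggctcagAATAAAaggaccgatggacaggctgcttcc
Lce1m, chr3:93019062-93019211, minus strand: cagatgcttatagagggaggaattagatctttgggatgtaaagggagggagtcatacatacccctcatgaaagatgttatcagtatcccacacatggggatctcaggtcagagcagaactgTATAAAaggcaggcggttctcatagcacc
The match begins 30 bases before the start in Lce1b, Lce1d and Lce1g and 29 bases before it in Lce1m, so the gene with the smallest ratio holds it as well. Of 13 Lce genes with a promoter in the table, 11 held NATAAA in the last 50 bases (84.6%), as did 18 of 24 cornified envelope genes (75%), against 3.09% of the 6496 genes of the comparison that could be matched. Lce1a1, not shown and with a ratio of 1.48, held no match there. The motif was read on the gene's strand and includes TATAAA, which 102 of the 6496 genes held in the same window (1.57%). The letters TGANTCA, a loose form of the AP-1 site in which any middle base counts, read the same on both strands. They stood in the last 250 bases of 7 of 24 cornified envelope genes (29.2%) and 4.02% of all matched genes, and in 0 of the 13 Lce genes. Over the 150 bases, pairs of Lce promoters were identical at 18.7 to 86.7% of positions without gaps, with a median of 29.0% over 78 pairs. Positions were counted back from each annotated start. A shift between similar runs therefore lowers the value, and a low value does not show that 2 promoters are unrelated.

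Early differentiation genes, which come before the envelope genes in the life of the cell, had a lower median. Of 20 loci none was called, 14 lay below 0 and 3 were past 2-fold lower, with a median of -0.26 (0.09 for the same loci in basal cells). The 4 keratin loci of spinous cells all lay below 0, and their levels summed to 15383 FPKM in wild type and to 6695 in bitransgenic cells. Beside Krt1 and Krt10 these were Krt77 (243 and 127 FPKM) and a merged locus that contains Krt2 and Krt5 (5147 and 2591 FPKM). Krt5 is a marker of basal keratinocytes, so the merged locus and the sum do not stand for spinous keratins alone. Calmodulin-like Calm5, in a merged locus, had 26.6 and 10.5 FPKM, and Ly6d 1458 and 815 FPKM. Calm4 had 578 and 534 FPKM and Lgals7, the keratinocyte galectin, 3827 and 3286 FPKM.

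Structural partners of the envelope had few loci past 2-fold. Of 17 desmosome genes none was called, with a median of -0.28. The merged locus of the desmogleins Dsg1a and Dsg1c had 70.1 and 31.6 FPKM, and Cdsn, which holds corneocytes together, 16.1 and 27.4 FPKM. Of 12 gap and tight junction genes none was called (median -0.24), and the connexin Gjb2 had 21.2 and 50.3 FPKM. The transglutaminases, which link the envelope, stood at 12.4 and 18.6 FPKM for Tgm1 and 43.7 and 24.3 FPKM for Tgm3.

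Of 25 proteases and inhibitors of cornification 1 fell (0.497% among all loci) and none rose, with a median of 0.01. Serpinb12, a serine protease inhibitor, fell from 37.5 to 8.34 FPKM (log2 fold change -2.17 ± 0.60). Cst6, a cystatin that restrains cathepsins in the cornifying layer, had 104 and 45.5 FPKM (log2 fold change -1.19 ± 0.36) without a call. In basal cells Cst6 had 3.55 and 11.5 FPKM, and the difference between the layers was -2.89 ± 0.59 (Wald test on the log2 fold changes, Benjamini-Hochberg adjusted p 0.00477). Stfa3, a stefin, was the most abundant of the list with 10302 and 13745 FPKM. Cst3, which encodes the cystatin C of most tissues and is in none of the lists, fell from 214 to 65.1 FPKM (log2 fold change -1.72 ± 0.42).

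The lipid side of the barrier had no locus past 2-fold. None of 30 barrier lipid genes was called, 15 lay above 0 and 15 below, and the median was -0.02. Abca12, which loads lipid into lamellar granules, had 24.7 and 39.6 FPKM, and Psap, the precursor of saposins that help to process ceramides, 159 and 88.5 FPKM. Of 27 cholesterol and fatty acid synthesis genes none was called (median -0.18). Scd1 had 149 and 172 FPKM and Insig1 26.2 and 13.7 FPKM.

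Genes that mark basal keratinocytes were mostly lower in these suprabasal cells. Of 40 loci 3 fell (0.497% among all loci), 34 lay below 0 and the median was -0.33. In basal cells the same loci had a median of -0.54, with 9 called lower there, against 1.48% of all loci. Krt15, a keratin of quiescent basal and follicle stem cells, fell from 1025 to 124 FPKM (log2 fold change -3.04 ± 0.75) at its locus on chromosome 11 (mm10, 100131758 to 100135928). In basal cells it had 1602 and 308 FPKM. Krt14, the main basal keratin, shares a merged locus with Krt16, which had 1994 and 1534 FPKM and was not called. Fras1, a matrix protein that ties epithelium to dermis, fell from 9.76 to 1.19 FPKM (log2 fold change -3.03 ± 0.75), and its partner Frem2 had 12.3 and 5.08 FPKM. Postn, periostin of the matrix, fell from 119 to 38.2 FPKM (log2 fold change -1.63 ± 0.40). Integrins held closer levels: Itga6 had 106 and 85.1 FPKM, Itgb4 62.5 and 53.6, and the hemidesmosome collagen Col17a1 145 and 95.2, with none called. The part of basal cells carried through the sort in these levels was not tested.

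Igf2, the fetal insulin-like growth factor, had the largest fall among the called loci. Its locus on chromosome 7 (mm10, 142650766 to 142670356) went from 135 to 2.64 FPKM (log2 fold change -5.67 ± 1.399, authors' q 0.0161). In basal cells it went from 329 to 5.03 FPKM (log2 fold change -6.03 ± 1.49), and the difference between the layers was 0.36 ± 2.04 (adjusted p 1). Of 10 loci of the IGF pathway Igf2 alone was called (0.549% among all loci), with a median of -0.79, and 3 passed the level rule through wild type alone. The binding proteins Igfbp3 (8.81 and 1.77 FPKM) and Igfbp2 (60.5 and 22.8 FPKM) were low without a call, while the receptor gene Igf1r had 9.44 and 17.3 FPKM.

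Igf2 is imprinted, which means that it is read from 1 parental copy. Of 9 other imprinted loci, a list without Igf2, 2 fell (0.497% among all loci), none rose, and 5 were past 2-fold lower (5.5% among all loci). Their median was -1.29. That median rests on few loci: it was -0.12 without merged loci and -0.56 with a minimum level of 1 FPKM. H19, the maternally read neighbour of Igf2, stands in a merged locus with Mir675 (142575529 to 142578143) that had 2869.8 and 137 FPKM (authors' q 0.0889). Peg3, a zinc finger gene read from the paternal copy, fell from 15.9 to 5.29 FPKM (log2 fold change -1.59 ± 0.42), and Plagl1, a paternally read factor, from 37.1 to 14.6 FPKM (log2 fold change -1.35 ± 0.37). Grb10, an adaptor that dampens insulin receptor signals, had 9.82 and 24.2 FPKM and stood on the other side of 0. Gnas had 333 and 312 FPKM and Igf2r 10.8 and 12.3 FPKM, with no call.

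Histone genes differed by class in suprabasal cells. The core histones H2A, H2B, H3 and H4 form the nucleosome in equal numbers, and their replication-dependent genes are transcribed together in S phase from clusters. All 14 H2A loci were past 2-fold lower, of which 11 reached 5 FPKM in wild type alone and so had to lie below 0, with a median log2 ratio of -2.98 and levels that summed to 641 FPKM in wild type and to 46.5 in bitransgenic cells. Of 12 H3 loci 11 were past 2-fold lower, and 7 of the 12 reached 5 FPKM in wild type alone, with a median of -2.50 and a summed level of 490.5 and 76.9 FPKM. Of 13 H4 loci 6 were past 2-fold lower, with a median of -0.92. The 15 H2B loci had a median of -0.12, with 2 past 2-fold lower, 2 higher and a summed level of 1095 and 1264 FPKM, and the 5 H1 loci a median of -0.26.

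Of the 59 histone loci 2 were called (3.39%), against 0.549% of all loci. Hist1h2ak fell from 332 to 9.26 FPKM (log2 fold change -5.17 ± 1.27) and Hist1h4h from 112 to 21.2 FPKM (log2 fold change -2.41 ± 0.59). Of the 39 H2A, H3 and H4 loci 15 had an authors' p under 0.05, each lower, against 544 lower ones among all 9657 loci. Of the 39, 19 reached 5 FPKM in wild type alone and so had to lie below 0. In basal cells the same H2A loci had a median of -0.37, H3 -0.28, H4 -0.44 and H2B -0.49. For Hist1h2ak, with 293 and 235 FPKM in basal cells, the difference between the layers was -4.85 ± 1.30 (Wald test, adjusted p 0.214) and missed the threshold. Its suprabasal error is an upper bound, so the test cannot settle whether the layers differ for this gene. H2afj, an H2A variant gene outside the clusters, was also called and fell from 90.2 to 18.1 FPKM (log2 fold change -2.32 ± 0.57).

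**Figure D4:**
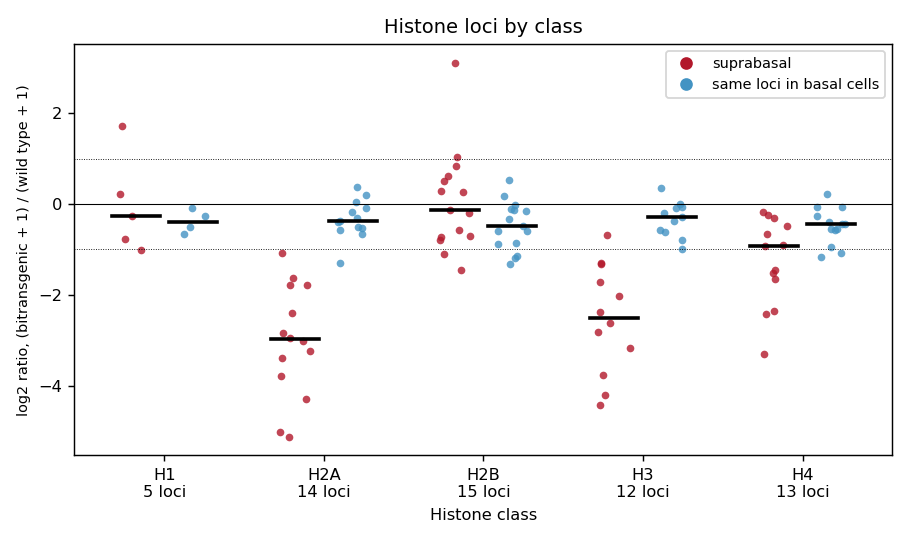
Log2 ratio of bitransgenic over wild type (vertical) for each histone locus by class in suprabasal cells (red) and for the same loci in basal cells (blue), with medians as black bars and dotted lines at 2-fold. In suprabasal cells the H2A and H3 medians lie at -2.98 and -2.50 and the H2B median at -0.12, and in basal cells all 5 classes have medians between -0.49 and -0.28.

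Some H2A and H2B genes are close neighbours. On chromosome 13 Hist1h2ai and Hist1h2bl lie 269 bp apart, and had 10.6 and 0.108 FPKM against 47.6 and 57.7 FPKM. Hist1h2ah and Hist1h2bk, 178 bp apart, had 9.25 and 0.941 FPKM against 60.04 and 36.02 FPKM. Hist1h2ag and Hist1h2bj, 265 bp apart, were both lower, with 10.9 and 2.48 FPKM against 19.2 and 12.7 FPKM. In these 3 pairs the H2A gene reached 5 FPKM in wild type alone. Hist1h2ak lies 186 bp from Hist1h2bn, whose 2 loci had 272 and 490.5 FPKM and 18.7 and 6.18 FPKM. The genes of a class are near-identical copies, so how reads were split among them is uncertain. All 14 H2A loci hold an annotated short RNA gene, against 3 of 15 H2B, 2 of 12 H3, 2 of 13 H4 and 3 of 5 H1 loci. The loci of the other classes that hold one all share a single interval of chromosome 13 (mm10, 23551258 to 23740366). Hist1h2ac, Hist1h2ad and Hist1h2ae have this interval as well, and short RNA genes were counted over all of it. The part of this feature in the H2A levels was not tested. Without loci that hold a short RNA gene, the median of the histone loci that remained was -0.89, against -1.31 for all 59. This alternative was chosen after seeing the data, and it drops every H2A locus and some loci of each other class.

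Cell cycle genes lay closer to 0 than the histones. Of 35 loci none was called, the median was -0.03 and 3 were past 2-fold higher. These 3, Ccne1, Ccne2 and Ccnb1, reached 5 FPKM in bitransgenic cells alone and so had to lie above 0. Pcna, the clamp of replication forks, had 57.4 and 50.98 FPKM. The G1/S cyclins Ccne1 and Ccne2 had 1.82 and 6.23 FPKM and 4.65 and 15.9 FPKM, and the mitotic cyclins Ccnb1 and Ccnb2 1.99 and 6.39 FPKM and 21.3 and 9.85 FPKM. Genes of p53 and senescence had no call among 24 loci (median -0.25). Ddit4 had 47.7 and 21.3 FPKM and Perp, which also serves desmosomes, 961 and 626 FPKM.

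Of the pathways in the series title, the Wnt genes were read by role. The 9 ligand loci had a median of -1.32, with 7 past 2-fold lower (5.5% among all loci) and 3 that passed the level rule through wild type alone. The medians of the 14 receptor loci, the 9 antagonist loci and the 21 effector loci were -0.31, -0.24 and 0.04. The called ligand genes were Wnt7b, which fell from 18.5 to 5.18 FPKM (log2 fold change -1.84 ± 0.45), and Wnt4, which fell from 35.2 to 11.4 FPKM (log2 fold change -1.62 ± 0.40). Wnt10b had 10.1 and 1.08 FPKM, Wnt16 8.82 and 1.32, and Wnt3 21.2 and 7.95, and these were not called. Among the 53 Wnt loci 3 were called, all lower (0.497% among all loci). The third was Lrp4, a receptor of the LRP family, which fell from 26.6 to 7.503 FPKM (log2 fold change -1.83 ± 0.45). The effectors Ctnnb1 (184 and 205 FPKM) and Lef1 (9.48 and 8.86) and the target Axin2 (23.5 and 21.6) were not called.

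The 32 nuclear envelope loci had no call and a median of -0.25, and 27 lay below 0. The 6 loci of lamins and their processing enzymes had a median of -0.22, with Lmna at 460.2 and 397 FPKM, Lmnb1 at 25.3 and 20.7 and the protease gene Zmpste24 at 20.3 and 18.9. A read of the progerin transgene in the Lmna locus cannot be told apart from one of the mouse gene here. The 6 loci of the LINC complex, which joins nucleus and cytoskeleton, had a median of -0.33, with Sun1 at 25.2 and 18.4 FPKM and Sun2 at 24.1 and 20.3. Emd had 69.6 and 88.97 FPKM, Tmpo 37.05 and 37.5, and Ran, the GTPase of nuclear transport, 136 and 59.5. Polarity and spindle orientation genes had no call among 27 loci (median -0.26). Gnai1, which helps to anchor the spindle at the cell cortex, came closest, with 24.6 and 8.82 FPKM and an authors' q of 0.0506.

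Genes of hyperproliferation and stress stood on both sides. Of 32 loci none was called, 5 reached 5 FPKM in bitransgenic cells alone, 7 were past 2-fold higher and 2 lower, and the median was 0.26. Beside S100a8 and S100a9 these included Lcn2, an iron-scavenging antimicrobial (6.95 and 24.4 FPKM), the protease inhibitor gene Slpi (5.14 and 16.3), the defensin gene Defb3 (5.58 and 23.2) and the stress keratin Krt6a (58.2 and 141). Ccl27a, a chemokine that draws T cells to skin, had 331 and 46.004 FPKM and the lowest ratio of the list. Krt17 had 1743 and 2159 FPKM. In basal cells 5 of the 31 loci of this list held there were called higher, against 29 of 9312 among all loci in both tables. S100a8 and S100a9 were among the 5, each with an authors' q of 0.00858 in basal cells.

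Several further lists had no call. The Notch list of 21 loci had a median of -0.22, with Notch3 at 23.9 and 10.6 FPKM and Hes1 at 170.4 and 103. The 9 loci of the EGF receptor family (-0.02) ranged from the ligand gene Hbegf (34.7 and 13.7 FPKM) to Epgn (33.5 and 69.5). Hippo genes (20 loci, median 0.05) included Ctgf at 14.2 and 4.02 FPKM. Antioxidant and metallothionein genes (23 loci, -0.02) included the differentiation-linked Mt4 at 26.97 and 4.52 FPKM, interferon genes (9 loci, -0.22) Irf1 at 78.9 and 26.96, and clock genes (12 loci, 0.14) Nr1d1 at 15.6 and 22.02. No call fell on 76 mitochondrial ribosomal (median 0.01), 74 oxidative phosphorylation (-0.08) or 37 proteasome loci (0.16), and Cox5a had 278 and 101 FPKM. Of 139 solute carriers 1 fell (0.497% among all loci), with a list median of -0.10. This was the carnitine and ergothioneine transporter gene Slc22a4, which fell from 16.2 to 2.902 FPKM (log2 fold change -2.48 ± 0.67).

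Of 128 ribosomal protein loci 1 rose (0.0518% among all loci), 1 fell (0.497% among all loci) and the median was -0.02. Rps12 rose from 22.1 to 139 FPKM (log2 fold change 2.66 ± 0.65), and its locus holds 3 short RNA genes. The pseudogene Rps2-ps10 fell from 76.7 to 6.32 FPKM (log2 fold change -3.600 ± 0.89), and reads of its parent gene could be counted at its locus. In basal cells it had 6.44 and 9.43 FPKM. The difference between the layers was -4.15 ± 1.09 (Wald test, adjusted p 0.195) and missed the threshold. The suprabasal error of Rps2-ps10 is an upper bound, so the test cannot settle whether the layers differ for it.

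The called loci that belong to none of these groups were varied. The phosphatase gene Ppm1h fell from 61.6 to 2.96 FPKM (log2 fold change -4.38 ± 1.08), and it is not in the basal table. Fth1, the heavy chain of the iron store ferritin, fell from 291 to 104 FPKM (log2 fold change -1.48 ± 0.36), and Ptma, a small acidic chromatin-associated protein, from 162 to 65.6 FPKM (log2 fold change -1.31 ± 0.34). In basal cells these had 313 and 266 FPKM and 115 and 134 FPKM, and neither difference between the layers passed the threshold (adjusted p 1 and 0.268). Npl, a sialic acid lyase gene, fell from 157 to 43.1 FPKM (log2 fold change -1.87 ± 0.46). Metabolic genes among the falls were Gpt, alanine aminotransferase (20.9 to 5.61 FPKM), and Cbs, cystathionine beta-synthase (18.1 to 4.86). Genes of matrix and cell surface were the collagen-processing protease gene Adamts14 (8.03 to 1.21 FPKM), the anthrax toxin receptor gene Antxr1 (16.5 to 4.74), Cd109 (45.2 to 17.98) and Ccdc3 (23.7 to 7.67).

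Other falls were of signalling genes and loci of less clear function. Itpkc, an inositol phosphate kinase gene, fell from 65.7 to 20.9 FPKM, Arhgap24, a GTPase-activating protein gene, from 41.2 to 13.5, and Nynrin from 8.29 to 2.25. The merged locus of Clca1, Clca2 and Clca4 fell from 105 to 37.6 FPKM. Gm7367 (38.9 to 9.67 FPKM), 2810428I15Rik (56.3 to 14.9) and 4833423E24Rik (33.9 to 11.4) also fell. The fifth rise beside those described was that of Cntfr, a receptor subunit for ciliary neurotrophic factor, from 14.1 to 38.1 FPKM (log2 fold change 1.43 ± 0.39), with 7.53 and 16.1 FPKM in basal cells.

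Some of the largest ratios belonged to loci that the test did not call. Of the 15 lowest uncalled ratios of single genes 9 were histones (Hist1h2ab, Hist1h2ai, Hist1h2al, Hist1h2an, Hist2h2ac, Hist1h3f, Hist1h3g, Hist1h3h and Hist1h4a), beside Fam168a, Cyp2f2, Tasp1, Snord118, Gm20481 and a gene of an unplaced scaffold. Of the 15 highest, 10 hold a short RNA gene (Alox5ap, Mir1931, Glul, Snora68, Nbas, Sh3bgrl, Gm24289, Gm24455, Rpl5 and Nbea), and D17Wsu92e, Tiam2, Gm15644, Gm11734 and Hist3h2bb-ps do not. Beyond 8-fold stood 46 loci, of which 6 were called, 27 hold a short RNA gene and 13 are histones. Of the 17 higher ones 12 hold a short RNA gene, and so do 18.6% of all loci. Glul, glutamine synthetase, had 72.7 and 1499 FPKM (authors' p 0.0474), the lipoxygenase-activating protein gene Alox5ap 0.435 and 80.1 (authors' p 0.492) and Rpl5 836 and 7127 (authors' p 0.256), and each of these loci holds at least 1 short RNA gene. Among the uncalled low loci the more abundant of the 2 Fam168a loci had 91.9 and 0.0295 FPKM (authors' p 0.409) and the cytochrome gene Cyp2f2 47.3 and 0.312 (authors' p 0.0065), and no short RNA gene lies in either. The implied standard errors on the log2 scale were 2.20 for Glul and 2.66 for Cyp2f2, and 10.9 for Alox5ap and 14.04 for Fam168a.

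The called suprabasal loci were then read in basal cells. Of the 53 called loci 52 are in the basal table, and 27 of them were called there as well (1.79% among all loci in both tables), 26 in the same direction. Of 47 loci that fell in suprabasal cells, 43 also lay below 0 in basal cells. That share is read against all loci: of 5393 that lay below 0 in suprabasal cells and are in both tables, 3600 lay below 0 in basal cells (66.8%). The sample titles share 3 wild type stems and 1 bitransgenic stem between the layers, so the layers may not be independent.

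**Figure D5:**
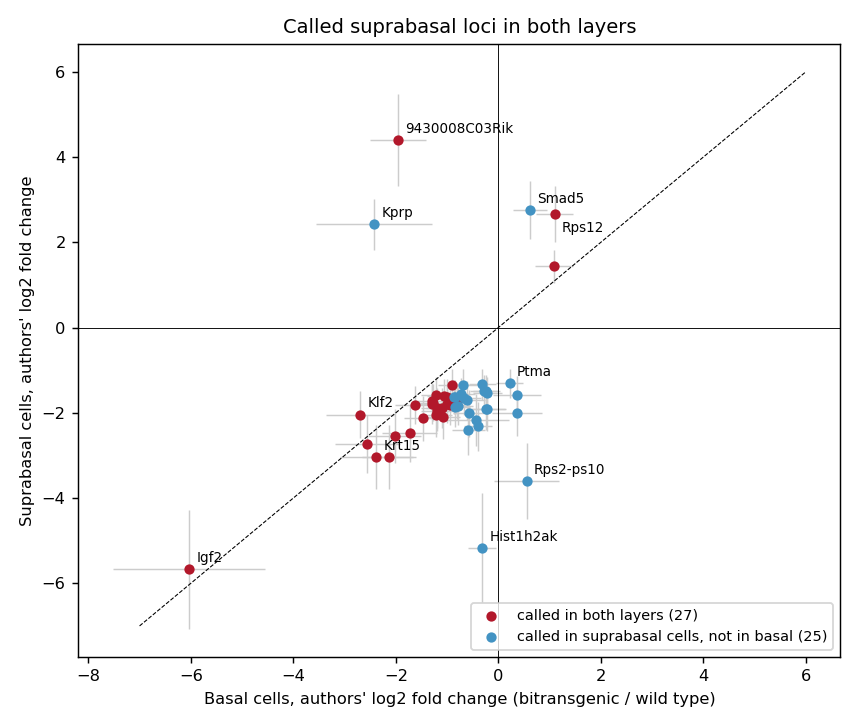
The authors' log2 fold change in basal cells (horizontal) and suprabasal cells (vertical) of the 52 called suprabasal loci that both tables hold, with bars of 1 implied standard error and the line of equal change dashed. Igf2 and Krt15 lie low on both axes, Hist1h2ak lies low in suprabasal cells alone, and 9430008C03Rik and Kprp lie on opposite sides of 0 in the layers.

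The difference itself passed for few loci, and where an implied error is an upper bound the test can miss a difference. Of 9312 loci held by both, 4 differed between the layers (0.043%), by the two-sided Wald test with Benjamini-Hochberg adjustment over 10583 loci. The single called locus among them was the merged locus of 9430008C03Rik, Gm23925 and Gm26003. It rose from 19.8 to 417 FPKM in suprabasal cells (log2 fold change 4.396 ± 1.08) and fell from 60.1 to 15.5 FPKM in basal cells. The others, Cst6, Rusc2 and Celf2, were not called in suprabasal cells. Rusc2, a gene of vesicle traffic, had 5.07 and 10.9 FPKM there and 3.93 and 0.0426 in basal cells, and Celf2, a splicing regulator, 14.1 and 31.3 and 9.16 and 1.43.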

How the data were processed

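Keratinocytes sorted from mouse skin were sequenced after strand-specific library construction, per the labels' protocols, in 10 samples. TopHat, Cufflinks and the build mm10 are named, without versions, in the submitters' processing notes. The authors deposited 1 table per cell layer, whose form is that of Cuffdiff: 1 level per genotype group in FPKM, read as such from that form, a log2 fold change, a test score, and a p-value and q-value per locus. These deposited values pool the samples of a group, so library depth is unknown and no sample could be left out. The score was not used in any result.

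Loci with status OK and at least 5 FPKM in the higher group were kept. The log2 ratio used a pseudocount of 1 FPKM, and calls used the authors' q under 0.05, the threshold for every list. Standard errors were taken as the size of the log2 fold change divided by the normal deviate that the authors' two-sided p stands for, and differences between layers were tested by a Wald test with Benjamini-Hochberg adjustment over 10583 loci. The code was tested on simulated data. Short RNA genes came from GENCODE M21 (GRCm38) and promoters from RefSeq (GRCm38.p6), matched by symbol for 6496 of 9199 single-symbol genes. Python 3.11.15, pandas 2.3.3, NumPy 2.4.6, SciPy 1.17.1 and matplotlib 3.10.9 were used.

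The members and the 45 gene lists were chosen with earlier results of these data known. Genes to name were taken from all called loci, the 15 largest uncalled ratios in each direction, the called members, up to 4 largest ratios and highest wild type level of each list, cell type markers, and 9 genes of the nuclear envelope and Wnt pathway. Genes named beyond this rule were chosen from the lists after their values were seen. The values of 1 called gene are not reported here.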

Additional observations from a re-analysis of the deposited data

Results flagged for a closer look

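The effect of the bitransgenic genotype differed between suprabasal and basal cells at 4 loci, by a two-sided Wald test on the authors' log2 fold changes with Benjamini-Hochberg adjustment. Each difference below subtracts the basal from the suprabasal fold change on the log2 scale and has its implied standard error. The merged locus of 9430008C03Rik, Gm23925 and Gm26003 had a difference of 6.35 ± 1.21 (adjusted p 0.00167), and it holds 3 short RNA genes. Cst6, a cystatin of the cornifying layer, had a difference of -2.89 ± 0.59 (adjusted p 0.00477), with 104 and 45.5 FPKM in wild type and bitransgenic suprabasal cells and 3.55 and 11.5 FPKM in basal cells. Rusc2, a gene of vesicle traffic, had a difference of 7.64 ± 1.73 (adjusted p 0.0355), with 5.07 and 10.9 FPKM in suprabasal and 3.93 and 0.0426 FPKM in basal cells. Celf2, an RNA-binding splicing regulator, had a difference of 3.84 ± 0.89 (adjusted p 0.0417), with 14.1 and 31.3 FPKM in suprabasal and 9.16 and 1.43 FPKM in basal cells. Rusc2, Celf2 and Cst6 were not called within suprabasal cells, and the basal level of bitransgenic Rusc2 is near 0. The cause of these differences was not tested.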

How the results depend on the processing

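No value of a single sample was analysed here, so no sample could be left out. No paired analysis was possible because the tables hold 1 level per group, with no column for a sample or a replicate number. The count of 53 called loci was 54 with no level minimum or a minimum of 1 FPKM, 48 with a minimum of 10, 50 without merged loci, 79 at an authors' q under 0.1 and 37 after centring the fold changes on their median (-0.08) and readjusting, which kept 36 of the 53. Higher calls numbered 8 at an authors' q under 0.1, and 2 without loci that hold a short RNA gene, an alternative chosen after seeing the data. Lower calls numbered 31 after centring, which also moved the share of lower calls from 90.6 to 83.8%. When the authors' p-values were adjusted again over status OK loci alone, 47 were called, and 4833423E24Rik, Bmp2, Cd109, Plagl1, Serpinb12 and Zfp36l2 were lost. With a pseudocount of 5, 143 loci were past 2-fold higher and 254 lower. The layer differences numbered 4 under every alternative run, and no result reversed. The cause of these changes was not tested. Of the list medians, that of the imprinted genes moved from -1.29 to -0.56 with a minimum level of 1 FPKM and to -0.12 without merged loci, and that of the hair follicle markers from -0.53 to between -0.34 and -0.31 with a pseudocount of 5, a minimum of 1 or 10, or no merged loci. The shares of loci past 2-fold were above those at 10 to 30 FPKM both below 10 FPKM and above 100 FPKM.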
